A study of Homo sapiens with 2 samples.

Results

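CKS1B, CKS2, SKP2, CDKN1B, the G1 cyclins CCND1, CCNE1 and CCNE2, and the kinases CDK2, CDK4 and CDK6 are described here as a set of 10 genes of 25364 with a row in both deposited files. They were chosen by name as the genes that carry cells through G1 and remove the inhibitor p27, with results of these data known. CKS1B was in view because its level differed between the libraries, so its values are a description and support nothing further. Each gene's value is the sum over its RefSeq transcripts and the assembled transcripts that have a strand and share an intron with them. This gave 18 transcripts in the shPSPC1 file and 17 in the shLacZ file.

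RNA was sequenced from A549 cells, a human lung adenocarcinoma line classed in the labels as non-small cell lung cancer. The shPSPC1 library came from A549 cells with an shRNA against PSPC1, which encodes an RNA-binding protein of nuclear paraspeckles. The shLacZ library, the control, came from A549 cells whose shRNA targets LacZ, a gene of bacteria with no human counterpart. Both cultures grew in medium with 10% serum, and each group has 1 library, so no test was possible and no value has a replicate to check it. The number of shRNA sequences or clones behind each library, the time after delivery and the efficiency at the protein level are not given in the labels.

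Levels are in FPKM, the fragments of a transcript divided by its length and by the mapped fragments of its library. The number after each ± is the distance to either bound of the interval in the deposited file, taken as a 95% interval. It is summed in quadrature over transcripts and covers counting and assignment error inside 1 library only. Ratios are log2 of shPSPC1 over shLacZ with a pseudocount of 1 FPKM, a scale that understates differences of low genes. A gene passed the rule of size used here if its higher library reached 1 FPKM, its level differed at least 2-fold on that scale (log2 ratio of 1 or more, or of -1 or less) and its intervals stood apart. PSPC1 had 17.7 ± 0.858 FPKM in the shPSPC1 library, against 31.5 ± 1.25 FPKM in the shLacZ library. PSPC1 RNA thus stood at 56.3% of its control level, a log2 ratio of -0.79. Depth was about 57100000 fragments in the shPSPC1 library and 56200000 in the shLacZ library, by an estimate from the intervals. The epithelial markers of an A549 culture were present, 6 of 6 above 1 FPKM in both libraries, with a summed level of 2920 FPKM in shPSPC1 and 3708 FPKM in shLacZ. All 6 had a ratio below 0, where 49.1% of all genes at 1 FPKM or more in a library did. Alveolar type II markers (6), fibroblast markers (5) and endothelial markers (4) had no gene at 1 FPKM in either library. Of 5 leukocyte markers only CD14 passed 1 FPKM, with PTPRC, the defining marker, below it.

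Progress through G1 depends on cyclin D with CDK4 or CDK6, and then on cyclin E with CDK2. The protein p27, encoded by CDKN1B, binds and inhibits cyclin E with CDK2. When p27 is phosphorylated, the ubiquitin ligase SCF with its F-box subunit SKP2 recognises it, and the small protein CKS1, encoded by CKS1B, is needed for that recognition. CKS1 and its close relative CKS2 also bind CDKs directly.

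CKS1B has a pair of RefSeq forms that differ at the end of exon 1, and the sequences at that place are shown because the difference between the libraries lay in 1 of the forms. In the coding form, exon 1 ends where the capitals begin and exon 2 follows, shown in capitals. In the form that RefSeq lists as non-coding, exon 1 runs on for another 108 bases. There the capitals mark the GT at which the coding form is spliced and the TAG, an in-frame stop codon. Both are given 5′ to 3′ on the plus strand, from GENCODE 29 transcripts on GRCh38, and the second lies at chr1:154974781-154974829.
coding form: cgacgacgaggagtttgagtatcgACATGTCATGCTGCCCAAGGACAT
non-coding form: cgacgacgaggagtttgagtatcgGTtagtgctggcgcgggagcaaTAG
The reading frame of the coding form holds 79 codons before its stop. In the longer form the same start meets the TAG after 27 codons, at base 23 of the added stretch. GENCODE 29 annotates the longer transcript with a start at base 98 of that stretch and 63 codons.

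CKS1B fell in the shPSPC1 library. The gene, on the plus strand of chromosome 1 from 154947118 to 154951725 in the files' own coordinates, had 32.0 ± 2.17 FPKM in shPSPC1, against 85.8 ± 3.42 FPKM in shLacZ. The shPSPC1 level was 37.3% of the shLacZ level. The log2 ratio was -1.39, and the outer bounds of the 2 intervals allowed -1.55 to -1.24. CKS1B was the single gene of the 10 past the rule of size, which 3.71% of 11502 genes passed in either direction. By direction, 2.0% of these genes passed as lower in shPSPC1 and 1.71% as higher. Because the libraries hold RNA pooled from many cells, fewer cells with CKS1B RNA and less of it per cell cannot be told apart. As estimated fragments, 1293 stood in shPSPC1 and 3267 in shLacZ, a log2 ratio of -1.33, and by this measure 1.89% of genes passed in the lower direction.

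The difference lay in the coding form. This form had 15.7 ± 1.60 FPKM in shPSPC1 and 67.7 ± 2.98 FPKM in shLacZ, a log2 ratio of -2.04. The non-coding form had 16.3 ± 1.46 FPKM in shPSPC1 and 18.1 ± 1.68 FPKM in shLacZ, and these intervals overlap. The coding form thus held a share of 0.490 of CKS1B FPKM in shPSPC1 and 0.789 in shLacZ, and the non-coding form 0.510 in shPSPC1 and 0.211 in shLacZ. The share rule for forms asks that the gene reach 5 FPKM in each library, that the share differ by 0.3 or more and that the form's intervals stand apart. The coding form, with a difference of -0.299, ended just short of it. By estimated fragments the difference was -0.311, which passes. By summed FPKM, the measure by which the coding form fell short, 0.830% of 5421 forms of genes with RefSeq forms alone passed the share rule. At a limit of 0.2 on the same measure, 2.29% passed. The share of all forms passing by estimated fragments is not given here, so the -0.311 has no background beside it. The forms differ in 108 of 924 bases, and neither was marked as having full read support in either file, so the split between them rests on few positions.

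**Figure D1:**
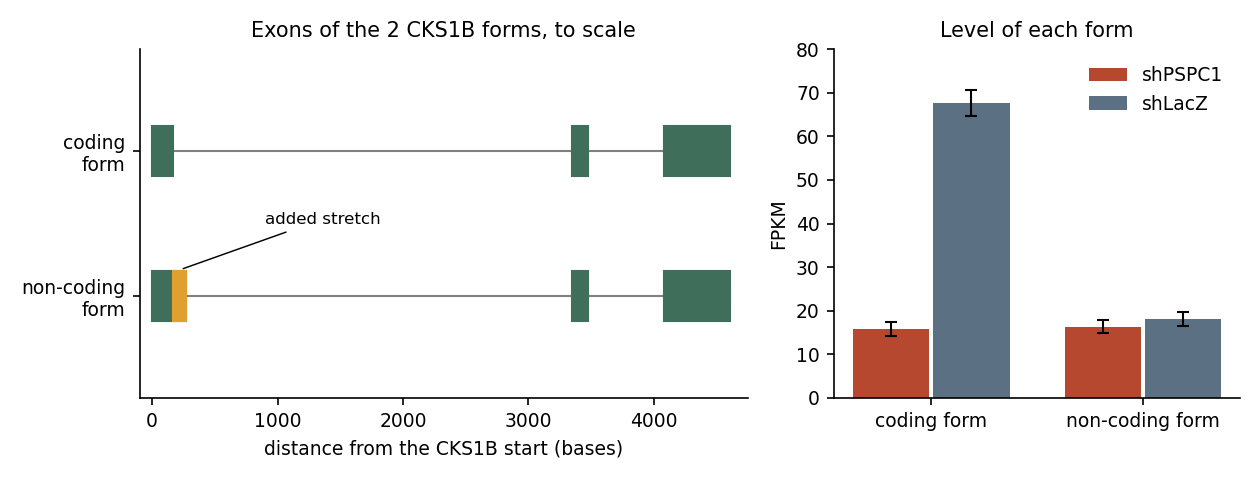
Left, exons of the coding and non-coding CKS1B forms (green boxes, introns as lines) against distance from the start in bases, with the 108 added bases in yellow. Right, FPKM of each form in the shPSPC1 library (red) and the shLacZ library (grey), with the deposited 95% interval as bars: the coding form stands at 15.7 in shPSPC1 and 67.7 in shLacZ, and the non-coding form at 16.3 in shPSPC1 and 18.1 in shLacZ.

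In the files, 28 genes had a coding and a non-coding RefSeq form with both at 5 FPKM or more in shLacZ. In 2 of them, or 7.14%, the coding forms had a log2 ratio of -1 or lower while the non-coding ones stayed within 0.5 of 0. These were NACA, which encodes a subunit of the nascent polypeptide-associated complex, and CKS1B. NACA had a log2 ratio of -7.96 in its coding and 0.06 in its non-coding forms, far from the -2.04 and -0.14 of CKS1B. Both genes are named after their values were seen, and CKS1B, in view from the start, is itself counted in the 7.14%. The filter used shLacZ alone, the library where the coding CKS1B form was higher. A form below 5 FPKM in shLacZ could not enter, however high it stood in shPSPC1. The 7.14% and the cases that follow are therefore one-sided, and no balance of directions can be read from them. Large differences in the non-coding forms also occurred, and these forms too were higher in shLacZ. DTYMK had a log2 ratio of 0.13 in its coding and -3.14 in its non-coding forms, SLC25A1 0.54 and -2.92, and BLOC1S1 0.33 and -2.75. Near-identical copies could take or lend reads: the name table lists 7 CKS1B pseudogenes, and none of them has a row in the files, so their level could not be set beside that of CKS1B.

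Genes next to CKS1B did not pass the rule of size. SHC1, an adaptor of receptor tyrosine kinases, starts 159 bases away on the other strand, and its forms that start there had 16.2 ± 0.874 FPKM in shPSPC1 and 16.0 ± 0.821 FPKM in shLacZ. All SHC1 forms together had 41.6 ± 1.29 FPKM in shPSPC1 and 41.7 ± 1.54 FPKM in shLacZ. Within 50000 bases of CKS1B, 6 other genes had 1 FPKM or more in a library, and their log2 ratios ran between -0.42 and 0.08. MIR4258, in the first CKS1B intron, was listed at 0 in both files.

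The 5 genes nearest to CKS1B in the levels of both libraries, by distance in log2(FPKM + 1) over the 2 libraries, were FKBP4, RPL10, SNORA20, CFB and RSL1D1. Chosen by these levels, all 5 have summed FPKM ratios near that of CKS1B by construction. RPL10, a ribosomal protein gene with many copies that could share its reads, had a log2 ratio of -1.48 by summed FPKM and -1.44 by fragments. CFB, complement factor B, had -1.17 by both measures. FKBP4, a co-chaperone of steroid receptors, had -1.32 by summed FPKM but -0.48 by fragments, and RSL1D1 had -1.31 by summed FPKM but 0.05 by fragments. The interval of the small nucleolar RNA SNORA20 was wide, 31.5 ± 28.2 FPKM in shPSPC1 and 78.6 ± 39.3 FPKM in shLacZ.

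CKS2, the paralog of CKS1B, stood on the other side of 0. It had 200.7 ± 5.61 FPKM in shPSPC1 and 165 ± 5.12 FPKM in shLacZ, with intervals apart and a log2 ratio of 0.28, short of the rule of size. It was the highest of the 10 genes in both libraries. CKS1B held 13.8% of the summed FPKM of both CKS genes in shPSPC1 and 34.2% in shLacZ. The sum itself was 233 ± 6.02 FPKM in shPSPC1 and 251 ± 6.16 FPKM in shLacZ, a log2 ratio of -0.11. Each library also had 1 assembled transcript without a strand across CKS2, at 2.77 ± 0.146 FPKM in shPSPC1 and 2.83 ± 0.148 FPKM in shLacZ, which is not in these values.

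The promoters of the CKS genes are shown because the paralogs differed in opposite directions. Each is the 250 bases before the RefSeq start on GRCh38.p14, given 5′ to 3′, with CCAAT boxes (CCAAT, or ATTGG on the other strand) and the CHR element of cell-cycle genes (TTTGAA, or TTCAAA) in capitals.
CKS1B, chr1:154974431-154974680, plus strand: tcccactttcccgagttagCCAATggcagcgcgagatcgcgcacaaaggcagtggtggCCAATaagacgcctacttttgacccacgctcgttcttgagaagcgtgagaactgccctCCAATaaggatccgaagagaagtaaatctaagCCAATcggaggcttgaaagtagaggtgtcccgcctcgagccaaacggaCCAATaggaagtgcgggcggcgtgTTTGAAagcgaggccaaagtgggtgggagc
CKS2, chr9:89310945-89311194, plus strand: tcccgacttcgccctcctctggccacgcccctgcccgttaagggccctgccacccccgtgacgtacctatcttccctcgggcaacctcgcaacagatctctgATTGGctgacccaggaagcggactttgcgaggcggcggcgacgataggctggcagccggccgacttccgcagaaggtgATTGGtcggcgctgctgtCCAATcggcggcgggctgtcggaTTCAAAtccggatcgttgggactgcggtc
A script counted 5 CCAAT boxes in the CKS1B window and 3 in the CKS2 window, on either strand. Each window held 1 CHR, at position -30 from that RefSeq start in CKS1B and -29 in CKS2. The starts of the deposited forms differ from it. Measured from the shared end of exon 1, the last 39 bases of the CKS1B window, the CHR among them, lie inside exon 1 of the CKS1B forms measured here. The CKS2 window ends 3 bases before the start of the deposited CKS2 form. Of 35116 promoters of this length, 13.3% held a CHR and 32.0% a CCAAT box. The table gave 8 promoters for 7 of the 10 genes, and 2 of these 8 held a CHR. The E2F letters TTTGGCGC, searched on both strands, were in 0.550% of all promoters, TTTCGCGC in 0.439%, and neither in any of the 8. A match of letters is not evidence of binding.

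SKP2, the F-box subunit that binds p27 together with CKS1, had 10.9 ± 0.672 FPKM in shPSPC1 and 12.9 ± 0.745 FPKM in shLacZ. Its intervals were apart and the log2 ratio was -0.23. The form with the long 3′ exon had 7.70 ± 0.422 FPKM in shPSPC1 and 8.70 ± 0.453 FPKM in shLacZ. The form with the short 3′ exon had 3.16 ± 0.524 FPKM in shPSPC1 and 4.17 ± 0.592 FPKM in shLacZ, and the third RefSeq form was listed at 0 in both. The long form held a share of 0.709 in shPSPC1 and 0.676 in shLacZ, so the mix of SKP2 forms was close in both libraries. CDKN1B, which encodes p27, had 26.8 ± 0.914 FPKM in shPSPC1 and 22.5 ± 0.865 FPKM in shLacZ, a log2 ratio of 0.24 with intervals apart. In the shLacZ file an assembled transcript without a strand crosses the whole of CDKN1B and beyond, at 1.53 ± 0.136 FPKM over 7465 bases, while the shPSPC1 file holds a short one of 223 bases. With such transcripts shared out by length, a choice made after seeing the data, the CDKN1B log2 ratio was 0.06.

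CCND1, the cyclin D1 partner of CDK4 and CDK6, was the next gene outside the rule of size. It had 41.3 ± 0.837 FPKM in shPSPC1 and 66.8 ± 1.07 FPKM in shLacZ, or 61.7% of the shLacZ level. Its log2 ratio was -0.68, with bounds from -0.73 to -0.63, and its estimated fragments were 9720 in shPSPC1 and 15508 in shLacZ. A single RefSeq form carried it, with no assembled form, so these values do not depend on a choice of forms. At a limit of 1.5-fold CCND1 would join CKS1B, and 5.49% of all genes tested passed that limit in the lower direction.

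The E cyclins, which activate CDK2 late in G1, lay nearer to 0. CCNE1 had 19.8 ± 0.882 FPKM in shPSPC1 and 21.5 ± 0.925 FPKM in shLacZ, with overlapping intervals. CCNE2, the lowest of the 10 genes, had 4.77 ± 0.362 FPKM in shPSPC1 and 6.33 ± 0.419 FPKM in shLacZ, with intervals apart and a log2 ratio of -0.34. Its 3′ end shares 270 exon bases with INTS8 on the other strand, which had 16.8 ± 0.745 FPKM in shPSPC1 and 18.1 ± 0.634 FPKM in shLacZ. No source used here says whether the reads kept their strand, so CCNE2 reads in that stretch are uncertain. Both E cyclins together had 24.6 ± 0.953 FPKM in shPSPC1 and 27.8 ± 1.02 FPKM in shLacZ.

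**Figure D2:**
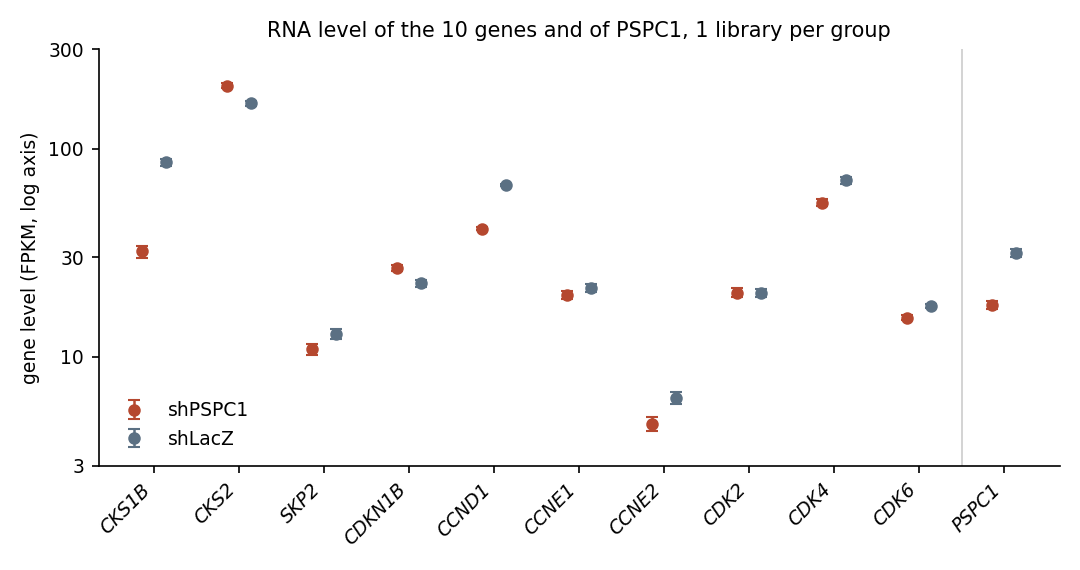
FPKM on a log axis for the 10 genes and PSPC1 in the shPSPC1 library (red, left of each pair) and the shLacZ library (grey), with the deposited 95% intervals as bars. CKS1B lies at 32.0 in shPSPC1 and 85.8 in shLacZ and CCND1 at 41.3 in shPSPC1 and 66.8 in shLacZ, while the points of CDK2 and CCNE1 have overlapping intervals.

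CDK2, the kinase of cyclin E, had 20.3 ± 1.05 FPKM in shPSPC1 and 20.3 ± 0.942 FPKM in shLacZ, a log2 ratio of 0.00. This holds only with the assembled form that the shPSPC1 file alone contains, at 5.33 ± 0.589 FPKM. That form has the introns of the 7-exon RefSeq form and ends 269 bases earlier. With both pooled, the 7-exon intron chain had 16.8 ± 0.936 FPKM in shPSPC1 and 16.5 ± 0.804 FPKM in shLacZ. From RefSeq transcripts alone the CDK2 log2 ratio was -0.41. The 6-exon form had 3.47 ± 0.464 FPKM in shPSPC1 and 3.85 ± 0.492 FPKM in shLacZ.

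CDK4, a kinase of cyclin D, had 55.0 ± 1.89 FPKM in shPSPC1 and 70.5 ± 2.77 FPKM in shLacZ, a log2 ratio of -0.35 with intervals apart. Most of it came from an assembled form with the RefSeq introns and an earlier 3′ end, by 552 bases in shPSPC1 and 603 bases in shLacZ. This short form had 43.2 ± 1.69 FPKM in shPSPC1 and 46.1 ± 2.35 FPKM in shLacZ, with overlapping intervals. The form with the annotated end had 11.8 ± 0.846 FPKM in shPSPC1 and 24.5 ± 1.46 FPKM in shLacZ, with intervals apart. The CDK4 difference thus lay in the form with the longer 3′ end. That end shares 517 exon bases with TSPAN31, a gene of the other strand that had 9.88 ± 0.681 FPKM in shPSPC1 and 7.82 ± 0.610 FPKM in shLacZ, so its level is uncertain unless the reads kept their strand.

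CDK6, the other kinase of cyclin D, had 15.4 ± 0.380 FPKM in shPSPC1 and 17.5 ± 0.416 FPKM in shLacZ, a log2 ratio of -0.17 with intervals apart. Its forms went in different directions. The RefSeq form that starts downstream had 8.80 ± 0.277 FPKM in shPSPC1 and 6.48 ± 0.256 FPKM in shLacZ. An assembled form of 7 exons, which keeps the 182 bases of the first intron of that RefSeq form, had 4.45 ± 0.207 FPKM in shPSPC1 and 8.47 ± 0.279 FPKM in shLacZ. It begins 474 bases upstream of that form in shPSPC1 and 9 bases upstream in shLacZ, so the assembled ends differ between the files. The RefSeq form that starts upstream had 2.16 ± 0.156 FPKM in shPSPC1 and 2.58 ± 0.171 FPKM in shLacZ. Without the assembled form, the CDK6 log2 ratio was 0.25, on the other side of 0. CDK4 and CDK6 together had 70.5 ± 1.93 FPKM in shPSPC1 and 88.0 ± 2.80 FPKM in shLacZ.

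**Figure D3:**
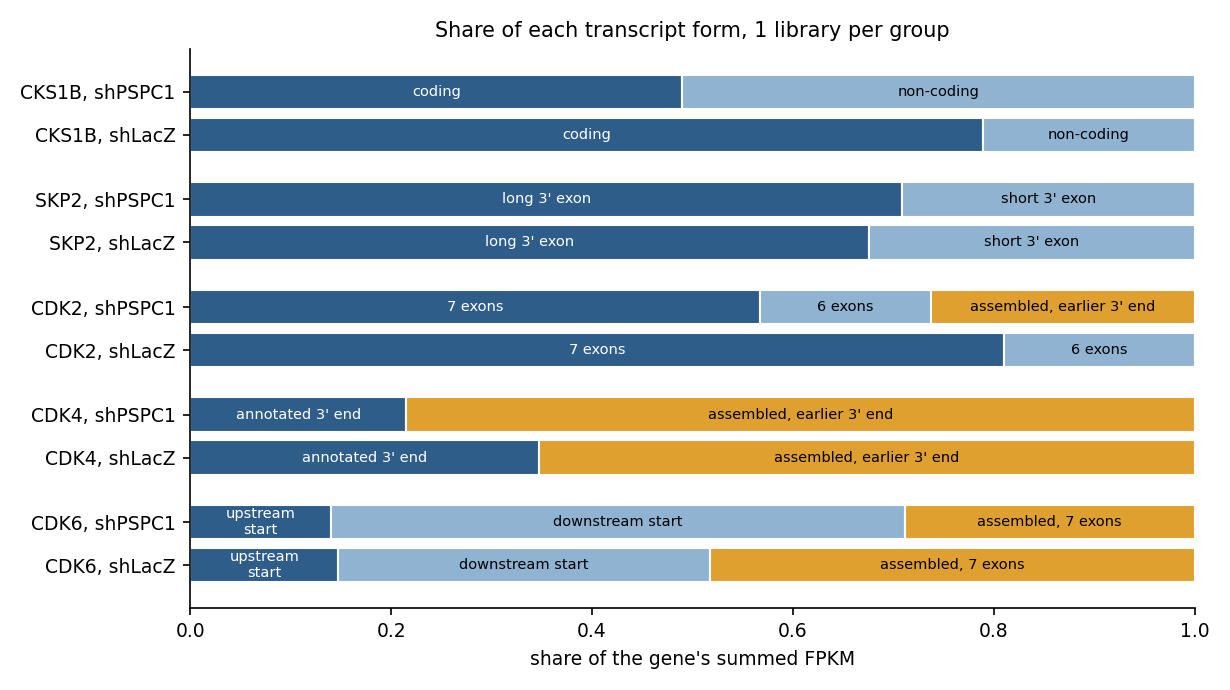
Share of each transcript form in the summed FPKM of CKS1B, SKP2, CDK2, CDK4 and CDK6, with the shPSPC1 library above the shLacZ library for each gene. RefSeq forms are blue and assembled forms yellow, and the coding CKS1B form takes 0.490 in shPSPC1 and 0.789 in shLacZ.

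No form of the 10 genes passed the share rule, which 23.0% of 17810 transcript forms of all genes passed. At a limit of 0.2 there were 4, against 32.8% of all forms. These were the coding form of CKS1B, the downstream-start form of CDK6, and the 7-exon RefSeq form and the assembled form of CDK2. Only genes with more than 1 form enter the rule, here CKS1B, SKP2, CDK2, CDK4 and CDK6. Among their forms the 4 are close to the share of all forms, so they mark nothing particular to the set. The background of forms is high where assembled forms enter, since a form found in 1 file only has a share of 0 in the other.

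Over the set, 7 of 10 genes had a log2 ratio below 0, where 49.1% of all genes tested did. Intervals were apart and lower for 6 genes (25.6% of all tested) and apart and higher for 2, CKS2 and CDKN1B (26.0% of all tested), and they overlapped for CCNE1 and CDK2. These shares are not matched for level, and intervals narrow as fragments rise. The genes tested include all from 1 FPKM up, whereas the lowest member, CCNE2, had 4.77 FPKM in shPSPC1 and 6.33 FPKM in shLacZ. The median log2 ratio of the 10 genes was -0.20, and that of the 11502 genes tested was 0.01. By estimated fragments the median of the 10 was -0.18. In level order, CKS1B was the fourth of the 10 in shPSPC1, below CKS2, CDK4 and CCND1, and the second in shLacZ, below CKS2. Neighbours with overlapping intervals were CDK2 and CCNE1 in shPSPC1, and CDK4 and CCND1, CDKN1B and CCNE1, and CCNE1 and CDK2 in shLacZ.

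**Figure D4:**
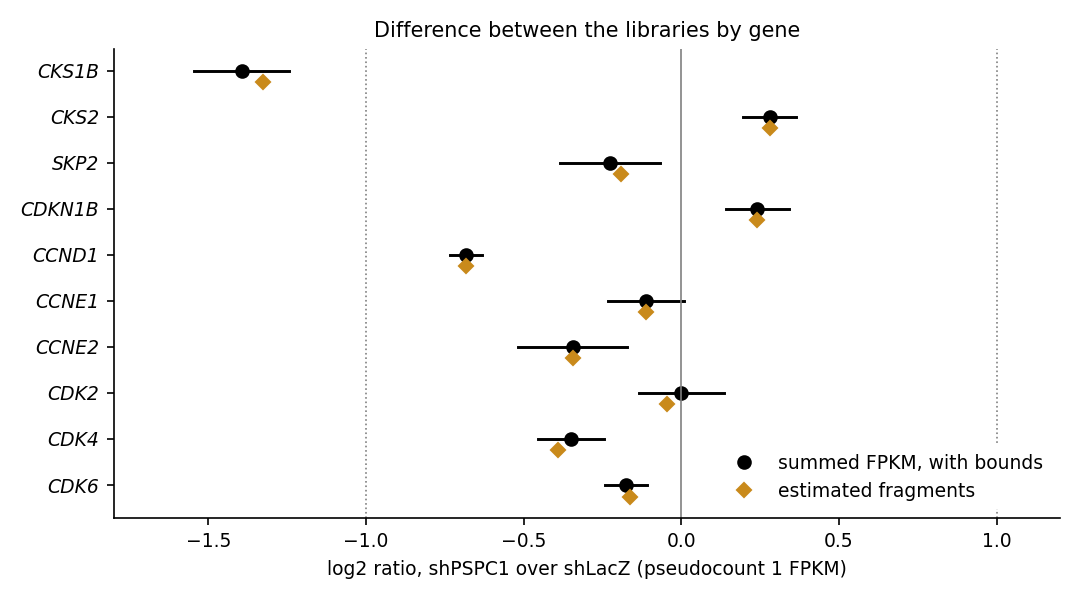
Log2 ratio of shPSPC1 over shLacZ for the 10 genes from summed FPKM (black, with the bounds that the 2 intervals allow) and from estimated fragments (yellow), with dotted lines at -1 and 1. CKS1B alone lies beyond a dotted line, at -1.39 by FPKM and -1.33 by fragments, and CCND1 is the next at -0.68.

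Genes around the set, from 7 lists chosen with earlier results of these data known, mostly lay near 0. The rule of size was passed by 3.71% of 11502 genes, so lists this short would hold few or no such genes at that share. Counts past the rule in the lists therefore say little. Of 19 measured genes listed as the SCF-SKP2 ligase and its opponents, none passed the rule of size, and their median log2 ratio was 0.04. This list also holds genes of other ubiquitin ligases, such as RNF123, UBAC1 and FBXW7, so its median describes a mixed group. NEDD8, the modifier that activates cullins, had 254 ± 6.22 FPKM in shPSPC1 and 251 ± 6.21 FPKM in shLacZ. CAND1, which exchanges F-box subunits on cullins, had 66.0 ± 1.60 FPKM in shPSPC1 and 50.3 ± 1.03 FPKM in shLacZ, a log2 ratio of 0.39 by summed FPKM and 0.04 by fragments. Of 6 CDK inhibitors other than p27, none passed the rule. CDKN1A, which encodes p21, had 26.7 ± 0.968 FPKM in shPSPC1 and 32.2 ± 1.07 FPKM in shLacZ, and CDKN2C had 16.4 ± 0.774 FPKM in shPSPC1 and 15.4 ± 0.940 FPKM in shLacZ. CDKN2A and CDKN2B were listed at 0 in both libraries. The median over the 6 inhibitors was -0.03, and over the 3 at 1 FPKM or more it was -0.20.

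Other cyclins, CDKs and their regulators, 17 measured, had none past the rule, beside 3.71% of all genes tested. Their median was 0.07, which was 0.00 by fragments. CCNB1, the mitotic cyclin B1, had 131 ± 4.61 FPKM in shPSPC1 and 96.1 ± 1.85 FPKM in shLacZ, but a log2 ratio of -0.01 by fragments. CDK1, its kinase, had 109 ± 3.54 FPKM in shPSPC1 and 100.3 ± 2.96 FPKM in shLacZ. Of 19 Rb and E2F genes, only E2F5 passed the rule in the lower direction, and the median was 0.05. E2F5, a repressor of the E2F family, had 2.69 ± 0.153 FPKM in shPSPC1 and 6.41 ± 0.561 FPKM in shLacZ, a log2 ratio of -1.004 by summed FPKM but 0.22 by fragments. MYBL2, a regulator of mitotic genes, had 30.5 ± 0.916 FPKM in shPSPC1 and 40.5 ± 1.24 FPKM in shLacZ, and E2F4 had 22.6 ± 0.904 FPKM in shPSPC1 and 22.0 ± 0.900 FPKM in shLacZ.

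None of 27 S phase genes passed the rule, beside 3.71% of all genes tested, and their median was -0.13. Of the 27, 20 had a ratio below 0, where 49.1% of all genes tested did. PCNA, the sliding clamp of DNA polymerases, had 428 ± 7.95 FPKM in shPSPC1 and 467 ± 10.3 FPKM in shLacZ, and its log2 ratio of -0.13 became 0.05 by fragments. MCM7, a subunit of the replicative helicase, had 107 ± 1.68 FPKM in shPSPC1 and 124 ± 2.19 FPKM in shLacZ. Of 27 mitosis genes none passed, 15 lay below 0, beside the same 49.1% of all genes tested, and the median was -0.02. TOP2A, the DNA topoisomerase of dividing cells, had 208 ± 1.61 FPKM in shPSPC1 and 197 ± 1.58 FPKM in shLacZ.

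Of 18 transcription regulators of the set, JUN alone passed the rule, beside 3.71% of all genes tested, and the median was -0.10. JUN, an AP-1 subunit and known activator of CCND1, had 3.51 ± 0.348 FPKM in shPSPC1 and 20.0 ± 0.672 FPKM in shLacZ. JUN has no intron, and a stranded assembled transcript inside it in the shPSPC1 file is not counted by a rule of shared introns. With that transcript, JUN had 16.9 ± 0.798 FPKM in shPSPC1 and 20.0 ± 0.672 FPKM in shLacZ, a log2 ratio of -0.23 that does not pass the rule. CTNNB1, which encodes beta-catenin, had 95.1 ± 1.92 FPKM in shPSPC1 and 82.1 ± 1.93 FPKM in shLacZ, and MYC had 30.1 ± 1.29 FPKM in shPSPC1 and 33.0 ± 1.03 FPKM in shLacZ.

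**Figure D5:**
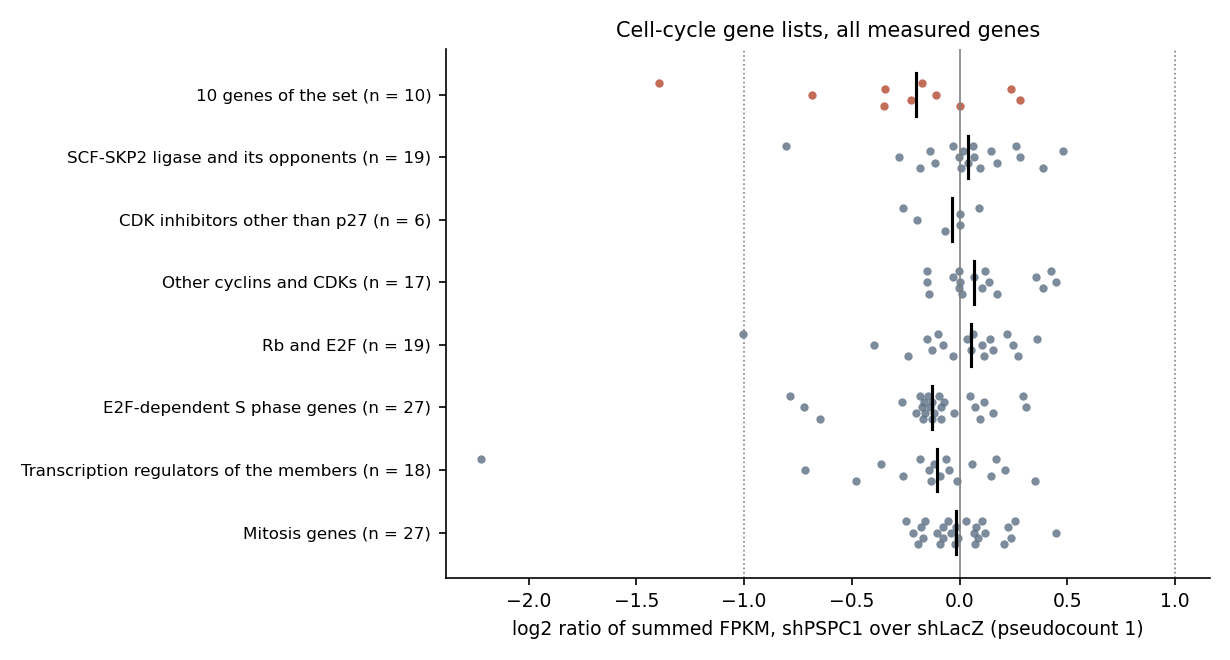
Log2 ratio of summed FPKM, shPSPC1 over shLacZ, for the 10 genes (red) and for the 7 lists (grey, all measured genes), with each median as a black line and dotted lines at -1 and 1. The points beyond -1 are CKS1B in the set, E2F5 at -1.004 among the Rb and E2F genes and JUN among the transcription regulators, which lies at -0.23 once the transcript inside JUN is counted.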

How the data were processed

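Total RNA of 1 shPSPC1 and 1 shLacZ library of A549 cells was analysed from the transcript file of each library. The authors' processing used CASAVA 1.8.2, TopHat2 2.0.7 and Cufflinks 2.1.1, per the submitters' processing notes. FPKM values with 95% intervals are the authors' own, per the file headers' attribute names, as are a coverage and a score for each transcript, which no result uses. The genome build, RNA selection and strandedness are not given in the sources used here. Scaffold names are those of GRCh37, and gene coordinates are the files' own, while printed sequences are on GRCh38.

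Transcripts were given to genes by RefSeq accession, or by a shared intron where assembled. Depth and fragment length were estimated from transcripts without a strand or an intron. These were taken to be alone at their locus, which was not checked. Their intervals implied whole fragments within 0.02 for 90.7% of 34803 in shPSPC1 and 91.3% of 28013 in shLacZ. FPKM times effective length gave estimated fragments. The steps were tested on simulated data in Python 3.11.15 with numpy 2.4.6. A transcript with 100 fragments has an interval that reaches 20% to either side.

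The members and lists were chosen with earlier results of these data known. All 10 members and PSPC1 are named. From each list, genes past the rule of size and the 2 with the highest mean FPKM are named, together with the 5 genes nearest to CKS1B. Alternatives varied the pseudocount, the transcripts counted, the scaling and the limits. Transcripts without a strand were left out of gene values.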

Additional observations from a re-analysis of the deposited data

Results flagged for a closer look

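Data outside the gene values showed a signal at CDK6 above that of the control library. Assembled transcripts without a strand inside the CDK6 gene held an estimated 186 fragments in the shPSPC1 library, in 7 transcripts, against 33 in the shLacZ library, in 1 transcript. Exact Poisson intervals at 95%, which cover counting error only, were 160 to 215 fragments in shPSPC1 and 22.7 to 46.3 in shLacZ. Of the 7, 5 lay inside an intron common to all RefSeq forms, and the 1 in shLacZ did not. Where these fragments come from was not tested. The shPSPC1 file holds more transcripts without a strand in all, 36255 with 5.65% of the estimated depth, against 29208 with 4.90% in the shLacZ file. At other members the same count went the other way or was alike: 31 fragments in shPSPC1 against 421 in shLacZ at CDKN1B, and 857 in shPSPC1 against 860 in shLacZ at CKS2. Added to the estimated fragments of CDK6, 10255 in shPSPC1 and 11385 in shLacZ, they gave a log2 ratio of -0.14, against -0.16 without them.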

How the results depend on the processing

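CKS1B stayed past the rule of size, in the lower direction, under each of the 10 alternatives to which the rule was applied. Several of these could not change its call. It has no assembled form to add or drop, its 32.0 FPKM in shPSPC1 and 85.8 FPKM in shLacZ exceed each FPKM minimum, and 1.5-fold is a looser limit. The share of all genes past the rule ran between 1.68% and 13.9% over the 10 alternatives, against 3.71% as reported. It was 9.76% with RefSeq transcripts alone, 13.9% with the most abundant form alone and 9.89% at 1.5-fold, so the call says less there. The CKS1B log2 ratio of -1.39 became -2.04 with the most abundant form alone, since that form is the coding one. At a limit of 1.5-fold, 2 members passed, CKS1B and CCND1. A share limit of 0.2 gave 4 member transcripts, where 32.8% of all forms passed. Shares of estimated fragments gave 1, the coding CKS1B form, against 0 by summed FPKM. The share of all forms passing by estimated fragments is not given here, so that count has no background and says nothing particular to the set. RefSeq transcripts alone gave CDK2 -0.41, CDK4 -0.99 and CDK6 0.25, by construction through the assembled forms left out. With the most abundant form alone CDK4 was at -0.09 and CDK6 at 0.39. Scaling to an equal sum moved the median of expressed genes to 0.09, CKS2 to 0.38, CCND1 to -0.59 and CDK6 to -0.08. The median of the CDK inhibitors, -0.03 over 6, was -0.20 over the 3 at 1 FPKM or more. Adding the copies of CKS1B gave no value, since none has a row. No paired analysis was possible because each group has 1 library. The sharing out of transcripts without a strand and the counting of overlapping ones in the lists were chosen after seeing the data.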
